A study of Homo sapiens with 15 samples.

Results

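The genes described here are 10 members of the YAP-TEAD arm of the Hippo pathway: YAP1, WWTR1, TEAD1, TEAD4, LATS2, AMOTL2, AJUBA, CCN1, CCN2 and ANKRD1. They were taken by symbol, and each stood in 1 row of both count tables, among 62703 genes for HEK293T and 35595 for HuCCT1. All 10 are protein-coding and had enough reads to be tested in both lines. RNA was sequenced after removal of ribosomal RNA from 15 libraries of 2 established human lines. HEK293T comes from embryonic kidney, and HuCCT1 is a bile duct cancer line. The labels name 5 groups of 3 libraries, which are SNRPD2KO, PUS7KO and Ctrl (control) cells of HEK293T, and SNRPD2KO and Ctrl cells of HuCCT1. The knockouts were made with CRISPR-Cas9, in HEK293T for both genes and in HuCCT1 for SNRPD2, which encodes the spliceosomal protein SMD2. PUS7 encodes an enzyme that converts uridine to pseudouridine in RNA. The guides, the treatment of Ctrl cells and whether a group is 1 clone or a mixed population are not given in the sources used here, and the labels do not say that replicates were separate cultures. The p-values therefore measure the spread between these libraries, which may be technical.

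In the Hippo pathway, a kinase cascade that ends in LATS1 and LATS2 phosphorylates the coactivators YAP1 and TAZ (the product of WWTR1) and keeps them out of the nucleus. When the cascade is quiet, the coactivators enter the nucleus and bind TEAD factors, which hold the DNA. Genes such as CCN1, CCN2 and ANKRD1 are then transcribed, and so are LATS2 and AMOTL2, whose products restrain YAP1 in turn. Cholangiocytes and cancers of the bile duct are among the cells in which YAP1 activity has been studied. These data measure RNA only, so neither phosphorylation nor the position of YAP1 in the cell was seen.

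The RNA of the gene SNRPD2 went against its label in both lines, so every direction below is that of the labelled groups. SNRPD2 stood at 309, 286 and 246 CPM in the HEK293T libraries labelled SNRPD2KO, against 196, 169 and 182 CPM in those labelled Ctrl. It stood at 260, 286 and 319 CPM in the HuCCT1 libraries labelled SNRPD2KO, against 160, 146 and 157 CPM in those labelled Ctrl. CPM are counts relative to a library's total, scaled by factors that allow for composition (TMM). The libraries labelled SNRPD2KO were thus the higher ones, with a log2 fold change of 0.62 in HEK293T (edgeR adjusted p = 4.9e-05) and 0.90 in HuCCT1 (adjusted p = 1.8e-06). SNRPD2 was also high in the HEK293T libraries labelled PUS7KO, at 266, 236 and 280 CPM. Its log2 fold change there against Ctrl was 0.52 (edgeR adjusted p = 0.00034). SNRPD2KO against PUS7KO did not pass for SNRPD2 (0.11, adjusted p = 0.56). In HEK293T the group labelled Ctrl was therefore the one with the least SNRPD2 RNA. Were the names SNRPD2KO and Ctrl swapped, each direction of SNRPD2KO against Ctrl would turn round, and so would the difference between lines. PUS7KO would have as its control the libraries here labelled SNRPD2KO. The values of SNRPD2KO against PUS7KO would keep their signs and be those of Ctrl against PUS7KO. PUS7 followed its label in HEK293T, at 13.7, 18.1 and 16.3 CPM in PUS7KO libraries against 26.5, 26.0 and 27.0 CPM in Ctrl libraries, a log2 fold change of -0.72 (adjusted p = 6.7e-05). Total counts were 13776166 to 16795618 in HuCCT1 and 7944276 to 11270267 in HEK293T. Protein-coding genes took 93.6% to 95.3% of counts in HuCCT1 and 61.7% to 68.8% in HEK293T. Markers of the lines fitted their names in part. The 7 epithelial markers were KRT7, KRT19, KRT8, KRT18, EPCAM, CDH1 and SOX9. All 7 were found in HuCCT1 (summed CPM 11815 to 12760 in SNRPD2KO and 12174 to 12383 in Ctrl). In HEK293T the same 7 summed to 227 to 263 CPM in SNRPD2KO, 225 to 262 CPM in PUS7KO and 214 to 372 CPM in Ctrl, mostly KRT8 and KRT18, while KRT7 and KRT19 reached at most 0.114 CPM. HEK293T held the neurofilament genes NEFL and NEFM, with summed CPM of 107.7 to 138.9 in SNRPD2KO, 149.6 to 177.5 in PUS7KO and 51.5 to 74.1 in Ctrl for the 4 genes of that list, but PAX2 and LHX1 were at or near 0. The leukocyte markers summed to at most 0.343 CPM in any library and the 3 endothelial ones to at most 1.78 CPM. The sum of the 6 fibroblast markers was low but differed between labels, carried by COL1A1 and LUM. It was 9.57 to 13.2 CPM in HEK293T SNRPD2KO, 11.9 to 13.8 CPM in PUS7KO and 6.75 to 6.93 CPM in Ctrl, with COL1A2 at 0 throughout, and 20.4 to 22.1 CPM in HuCCT1 SNRPD2KO against 10.8 to 12.6 CPM in Ctrl. In HuCCT1 the mean of COL1A1 was 16.3 CPM in SNRPD2KO and 9.05 CPM in Ctrl, and each of the other markers but LUM averaged under 1 CPM and was lower in SNRPD2KO. The part of these genes in the results was not tested.

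The targets are listed with their upstream DNA because TEAD factors read a short motif, GGAATG, that can be looked for directly. RefSeq promoter windows (GRCh38.p14, 250 bases before to 50 after the gene start) were on hand for 7 of the 10 genes, as 10 windows. The 250 bases before the start are shown for the targets CCN2 and ANKRD1, which had the largest changes in HEK293T. AMOTL2, a feedback inhibitor that fell in both lines, is shown at the annotated start that held a match. All 3 sequences read 5′ to 3′ on the strand of the gene, the minus strand in each. Capitals mark GGAATG or its reverse complement CATTCC, and in ANKRD1 also TGATTCA, which matches TGANTCA, the motif of the AP-1 factors.
CCN2 (chr6:131951373-131951622): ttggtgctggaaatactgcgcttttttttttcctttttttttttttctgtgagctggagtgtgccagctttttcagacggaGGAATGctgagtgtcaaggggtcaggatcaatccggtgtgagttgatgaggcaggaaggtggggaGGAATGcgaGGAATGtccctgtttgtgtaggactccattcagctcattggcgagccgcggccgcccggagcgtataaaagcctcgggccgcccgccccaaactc
ANKRD1 (chr10:90921088-90921337): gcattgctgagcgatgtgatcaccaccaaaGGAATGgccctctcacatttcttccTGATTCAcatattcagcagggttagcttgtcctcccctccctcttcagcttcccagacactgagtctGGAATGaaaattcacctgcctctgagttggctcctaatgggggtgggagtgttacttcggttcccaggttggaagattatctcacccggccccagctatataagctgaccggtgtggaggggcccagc
AMOTL2 (chr3:134374448-134374697): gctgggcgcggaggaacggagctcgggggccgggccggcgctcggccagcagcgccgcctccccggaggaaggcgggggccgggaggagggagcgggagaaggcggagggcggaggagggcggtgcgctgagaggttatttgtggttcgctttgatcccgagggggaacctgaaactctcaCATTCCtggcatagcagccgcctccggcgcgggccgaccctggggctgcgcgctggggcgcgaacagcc
CCN2 held 3 copies, beginning 169, 104 and 95 bases before the start. ANKRD1 held 2 copies at 220 and 128 bases, with the AP-1 match between them at 195 bases. AMOTL2 held 1 copy on the other strand, 69 bases before the start with the lower coordinate, and none at its other annotated start. Of the remaining genes with a window, YAP1 had 1 copy at 162 bases before the start and AJUBA had 1 at 59 bases in 1 of 2 windows. LATS2, which also fell in both lines, had no copy in the 250 bases before the start and 1 that began 9 bases after it. WWTR1 had none in either of its windows. Among all 35116 windows of this length, searched on both strands, 14.03% held at least 1 copy, 1.361% at least 2 and 0.1253% at least 3, and 7.709% held TGANTCA. These are letter matches and say nothing on binding. CCN1, TEAD1 and TEAD4 were not searched.

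**Figure D1:**
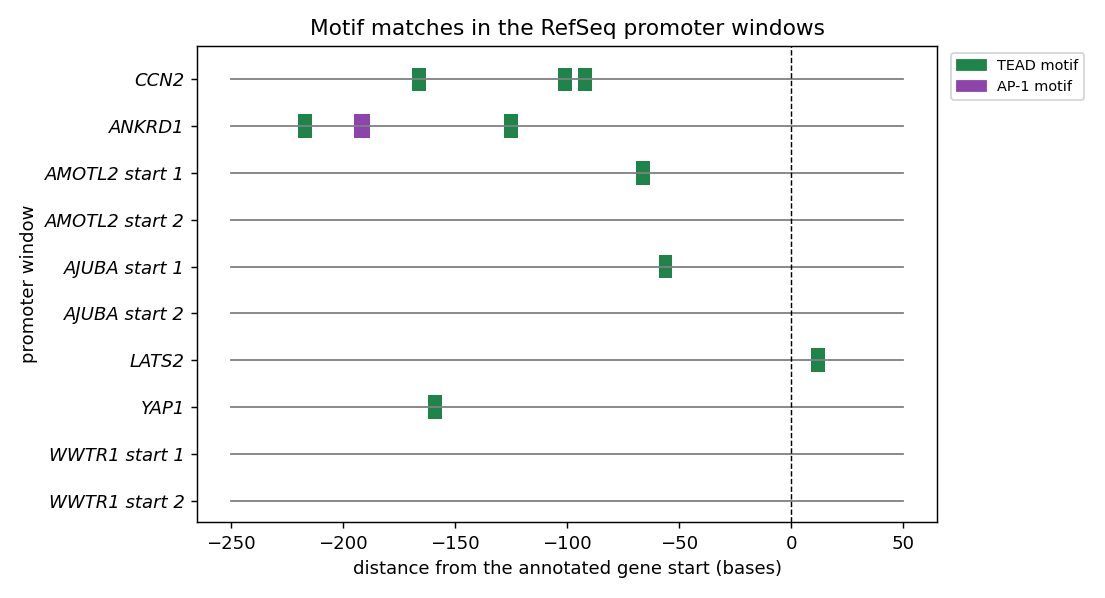
Each line is a promoter window from 250 bases before to 50 bases after an annotated gene start (x axis, bases), green bars are matches to the TEAD motif on either strand and the purple bar is the AP-1 match. CCN2 carries 3 TEAD matches, ANKRD1 carries 2 and an AP-1 match, and both WWTR1 windows carry none.

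In HEK293T, the target and feedback genes CCN2, ANKRD1, LATS2 and AMOTL2 were lower in both knockout-labelled groups than in Ctrl, by 2.22-fold to 4.50-fold in SNRPD2KO and by 2.36-fold to 4.15-fold in PUS7KO. The coactivator YAP1 was lower in both, and AJUBA was higher in both. The target CCN1 was lower by only 1.32-fold in SNRPD2KO and did not pass in PUS7KO. Between SNRPD2KO and Ctrl, 8 of 10 genes were lower and 2 higher, beside 26.4% lower and 26.9% higher among the 15882 genes tested (53.3% in either direction). Between PUS7KO and Ctrl, 5 were lower, 1 was higher and 4 did not pass, beside 23.8% lower and 25.6% higher of all genes (49.4% in either direction). The median log2 fold change of the 10 genes was -0.79 for SNRPD2KO and -0.51 for PUS7KO, against 0.02 and 0.01 over all genes. The libraries of the groups did not overlap for 9 genes in SNRPD2KO against Ctrl and for 7 in PUS7KO against Ctrl, where 59.5% and 57.2% of all genes did not overlap. Both comparisons use the same 3 Ctrl libraries, so their values are not independent.

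In HuCCT1, the same list split. ANKRD1, TEAD1 and AJUBA were higher in SNRPD2KO than in Ctrl, while LATS2, AMOTL2, WWTR1, TEAD4 and CCN2 were lower and CCN1 and YAP1 did not pass. These 3 higher and 5 lower stand beside 28.8% higher and 28.4% lower of 15007 genes (57.2% in either direction). The median of the 10 genes was -0.10, against 0.00 over all genes, and 9 genes had groups that did not overlap, beside 63.5% of all genes. The median size of the change, without its sign, was 0.43 for the 10 genes and 0.44 over all genes in HuCCT1. In HEK293T SNRPD2KO against Ctrl the median size was 0.89 for the 10 genes and 0.48 over all genes.

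**Figure D2:**
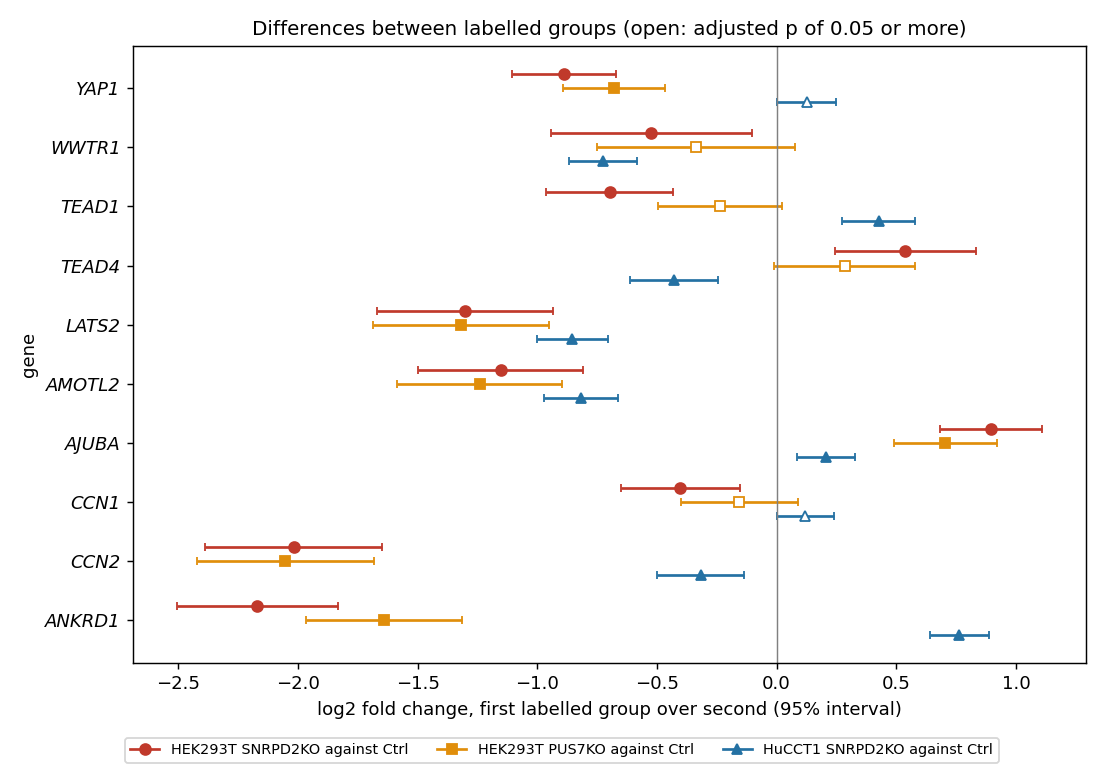
Log2 fold changes (x axis) of the 10 genes with 95% intervals from the edgeR fit, for HEK293T SNRPD2KO against Ctrl (circles), HEK293T PUS7KO against Ctrl (squares) and HuCCT1 SNRPD2KO against Ctrl (triangles), with open symbols where the adjusted p was 0.05 or more. LATS2 and AMOTL2 lie left of 0 in all 3 comparisons and AJUBA right of 0, while ANKRD1 is at 0.76 in HuCCT1 and at -2.17 (SNRPD2KO) and -1.64 (PUS7KO) in HEK293T.

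YAP1 (chr11:102110447-102233424), the main coactivator of the pathway, stood at 34.8, 36.2 and 41.3 CPM in HEK293T SNRPD2KO, at 44.4, 47.0 and 38.4 CPM in PUS7KO and at 64.5, 75.5 and 68.2 CPM in Ctrl. All 6 knockout-labelled libraries lay below every Ctrl library. The log2 fold change against Ctrl was -0.89 for SNRPD2KO (SE 0.10, adjusted p = 2.2e-06) and -0.68 for PUS7KO (SE 0.10, adjusted p = 3.9e-05). In HuCCT1, YAP1 stood at 267, 283 and 255 CPM in SNRPD2KO and at 248, 254 and 236 CPM in Ctrl. The groups touched without overlapping, and the log2 fold change of 0.12 (95% interval 0.00027 to 0.25) did not pass (adjusted p = 0.081). It passed when a trend with GC content was removed (0.14, adjusted p = 0.048) or without SNRPD2KO replicate 3 (0.17, adjusted p = 0.028).

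WWTR1 (chr3:149517235-149736714) encodes TAZ, the partner coactivator. In HEK293T it stood at 12.2, 10.9 and 16.2 CPM in SNRPD2KO, at 13.5, 19.8 and 11.6 CPM in PUS7KO and at 14.9, 20.4 and 21.7 CPM in Ctrl, and each knockout-labelled group overlapped Ctrl. The SNRPD2KO difference of -0.52 (SE 0.20, adjusted p = 0.035) passed. It was lost when the GC trend was removed (-0.28, adjusted p = 0.20), the mRNA having 40.9% GC, and without SNRPD2KO replicate 1 or 2 or Ctrl replicate 2 or 3 (-0.46 to -0.39). The PUS7KO difference was -0.34 (adjusted p = 0.17), and it passed without PUS7KO replicate 2 (-0.59, adjusted p = 0.019). In HuCCT1 it stood at 53.9, 50.9 and 48.1 CPM in SNRPD2KO against 80.4, 85.7 and 86.8 CPM in Ctrl. The HuCCT1 groups lay far apart relative to their spread, and the log2 fold change was -0.72 (SE 0.06, adjusted p = 3.1e-06).

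TEAD1 (chr11:12674421-12944737) and TEAD4 (chr12:2959330-3040676) encode DNA-binding partners of both coactivators, and in SNRPD2KO against Ctrl they moved in opposite directions in each line. TEAD1 stood at 23.0, 23.2 and 32.2 CPM in HEK293T SNRPD2KO, at 37.0, 39.0 and 32.4 CPM in PUS7KO and at 42.2, 40.9 and 44.7 CPM in Ctrl. SNRPD2KO libraries were lowest, PUS7KO libraries lay between and Ctrl libraries were highest, with no overlap between any of the 3 groups. The log2 fold change against Ctrl was -0.70 for SNRPD2KO (SE 0.12, adjusted p = 0.00018), and the PUS7KO value of -0.24 (95% interval -0.49 to 0.02) did not pass (adjusted p = 0.12). In HuCCT1 the direction was the other one, with 158, 151 and 143 CPM in SNRPD2KO against 102, 118 and 117 CPM in Ctrl. All SNRPD2KO libraries were above all Ctrl libraries, with a log2 fold change of 0.43 (SE 0.07, adjusted p = 0.00031).

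TEAD4 stood at 22.7, 22.6 and 20.2 CPM in HEK293T SNRPD2KO, at 20.2, 15.2 and 19.7 CPM in PUS7KO and at 16.6, 15.8 and 12.6 CPM in Ctrl. The SNRPD2KO libraries lay above Ctrl and the PUS7KO libraries overlapped it. The SNRPD2KO value of 0.54 (SE 0.14, adjusted p = 0.0036) became 0.23 (adjusted p = 0.12) once the GC trend was removed, and TEAD4 had the highest GC content of the 10 genes, 60.4%. The PUS7KO value of 0.28 (adjusted p = 0.10) passed without PUS7KO replicate 2 (0.42, adjusted p = 0.022) and with no filter on low counts (0.37, adjusted p = 0.042). In HuCCT1, TEAD4 stood at 50.6, 58.9 and 63.6 CPM in SNRPD2KO against 80.4, 73.3 and 79.1 CPM in Ctrl, and was lower in all SNRPD2KO libraries. That log2 fold change was -0.43 (SE 0.08, adjusted p = 0.0011).

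**Figure D3:**
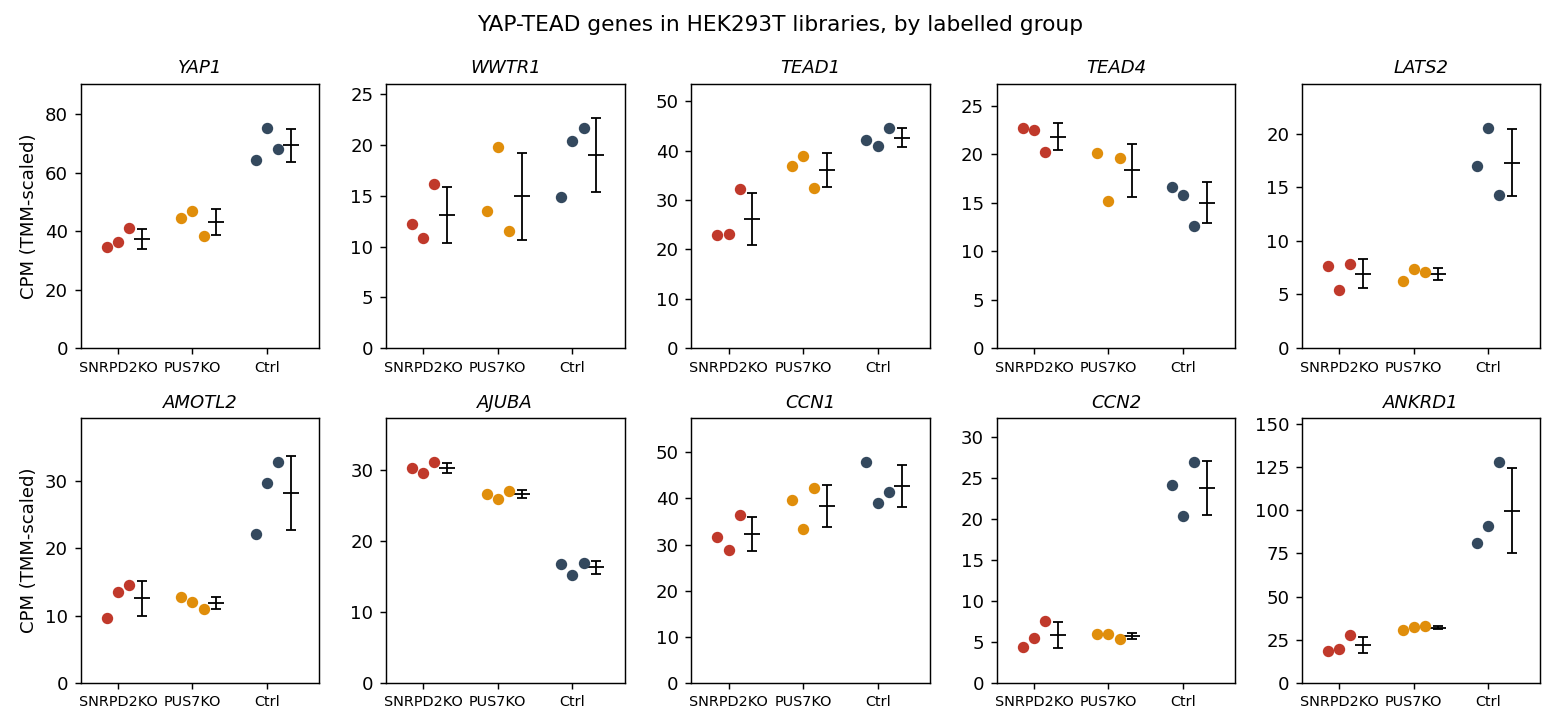
TMM-scaled CPM (y axis, from 0, a scale per gene) of the 10 genes in the 9 HEK293T libraries, a point per library, with the mean and SD of the 3 libraries in black beside each labelled group. CCN2 lies at 4.40 to 7.51 CPM in SNRPD2KO, 5.31 to 5.93 CPM in PUS7KO and 20.4 to 26.9 CPM in Ctrl, and AJUBA is the gene whose knockout-labelled libraries all lie above Ctrl in both groups.

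LATS2 (chr13:20973036-21061586), a kinase that inactivates YAP1 and is itself a YAP1 target, was lower in all 3 comparisons with Ctrl. It stood at 7.62, 5.39 and 7.85 CPM in HEK293T SNRPD2KO, at 6.30, 7.35 and 7.08 CPM in PUS7KO and at 16.9, 20.6 and 14.3 CPM in Ctrl. In HuCCT1 it stood at 54.1, 49.1 and 47.9 CPM in SNRPD2KO and at 89.7, 95.8 and 87.6 CPM in Ctrl. Every knockout-labelled library was below every Ctrl library of its line. The log2 fold changes were -1.30 for HEK293T SNRPD2KO (SE 0.17, adjusted p = 1.1e-05), -1.32 for PUS7KO (SE 0.17, adjusted p = 1.1e-05) and -0.85 for HuCCT1 SNRPD2KO (SE 0.07, adjusted p = 1.2e-06).

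AMOTL2 (chr3:134355347-134375479), an angiomotin that binds YAP1 at cell junctions and is induced by it, was lower in the same 3 comparisons. It stood at 9.66, 13.5 and 14.6 CPM in HEK293T SNRPD2KO, at 12.8, 11.9 and 10.9 CPM in PUS7KO and at 22.1, 29.7 and 32.7 CPM in Ctrl. In HuCCT1 it stood at 452, 383 and 379 CPM in SNRPD2KO against 709, 740 and 693 CPM in Ctrl. Again no knockout-labelled library reached the lowest Ctrl library of its line. The log2 fold changes were -1.15 for HEK293T SNRPD2KO (SE 0.16, adjusted p = 1.9e-05), -1.24 for PUS7KO (SE 0.16, adjusted p = 1.1e-05) and -0.82 for HuCCT1 SNRPD2KO (SE 0.07, adjusted p = 2.3e-06).

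AJUBA (chr14:22971177-22982551), a LIM-domain protein that binds and restrains LATS kinases, was the only one of the 10 genes that passed as higher in all 3 comparisons with Ctrl. It stood at 30.3, 29.6 and 31.1 CPM in HEK293T SNRPD2KO, at 26.6, 26.0 and 27.1 CPM in PUS7KO and at 16.7, 15.2 and 16.9 CPM in Ctrl. The spread within each group was small, and the log2 fold changes were 0.90 for SNRPD2KO (SE 0.10, adjusted p = 1.8e-06) and 0.70 for PUS7KO (SE 0.10, adjusted p = 2.8e-05). In HuCCT1 the levels were 171, 181 and 163 CPM in SNRPD2KO against 145, 150 and 151 CPM in Ctrl. The groups did not overlap but the difference was smaller, 0.21 (SE 0.06, adjusted p = 0.0078).

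CCN2 (chr6:131948176-131951372), also called CTGF, encodes a secreted matrix protein and is the most used readout of YAP1 and TEAD activity. Its window carried the 3 TEAD motifs shown above. It stood at 4.40, 5.50 and 7.51 CPM in HEK293T SNRPD2KO, at 5.92, 5.93 and 5.31 CPM in PUS7KO and at 24.1, 20.4 and 26.9 CPM in Ctrl. The knockout-labelled groups overlapped each other and lay far below Ctrl, with log2 fold changes of -2.02 for SNRPD2KO (SE 0.18, adjusted p = 1.2e-07) and -2.05 for PUS7KO (SE 0.17, adjusted p = 1.2e-07). In HuCCT1 CCN2 stood at 33.9, 29.1 and 28.4 CPM in SNRPD2KO against 37.0, 39.2 and 37.7 CPM in Ctrl. There the groups were close but did not overlap, and the log2 fold change was -0.32 (SE 0.08, adjusted p = 0.0063).

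ANKRD1 (chr10:90912096-90921087), an ankyrin-repeat protein and a direct YAP1 target, was lower in HEK293T SNRPD2KO than in Ctrl and higher in HuCCT1 SNRPD2KO than in Ctrl. It stood at 18.6, 19.9 and 27.6 CPM in HEK293T SNRPD2KO, at 30.9, 32.2 and 32.9 CPM in PUS7KO and at 81.0, 90.7 and 127.7 CPM in Ctrl. The 3 groups did not overlap, and the log2 fold changes against Ctrl were -2.17 for SNRPD2KO (SE 0.16, adjusted p = 2.1e-08) and -1.64 for PUS7KO (SE 0.15, adjusted p = 3.6e-07). In HuCCT1 it stood at 353, 315 and 335 CPM in SNRPD2KO against 192, 197 and 201 CPM in Ctrl. All SNRPD2KO libraries lay well above Ctrl there, with a log2 fold change of 0.76 (SE 0.06, adjusted p = 7.3e-07).

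CCN1 (chr1:85580761-85584589), also called CYR61, is a secreted protein related to CCN2 and a further standard target. It stood at 31.5, 28.9 and 36.3 CPM in HEK293T SNRPD2KO, at 39.7, 33.4 and 42.3 CPM in PUS7KO and at 47.8, 38.9 and 41.5 CPM in Ctrl. SNRPD2KO lay just below Ctrl, with a log2 fold change of -0.40 (SE 0.12, adjusted p = 0.0083) that became -0.31 (adjusted p = 0.057) without SNRPD2KO replicate 2. PUS7KO overlapped Ctrl (-0.16, 95% interval -0.40 to 0.09, adjusted p = 0.28). In HuCCT1 CCN1 stood at 800, 869 and 902 CPM in SNRPD2KO against 776, 804 and 785 CPM in Ctrl. These groups overlapped, and the log2 fold change of 0.12 (adjusted p = 0.079) became 0.22 (adjusted p = 0.0023) with the GC trend removed and 0.17 (adjusted p = 0.0051) without SNRPD2KO replicate 1.

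**Figure D4:**
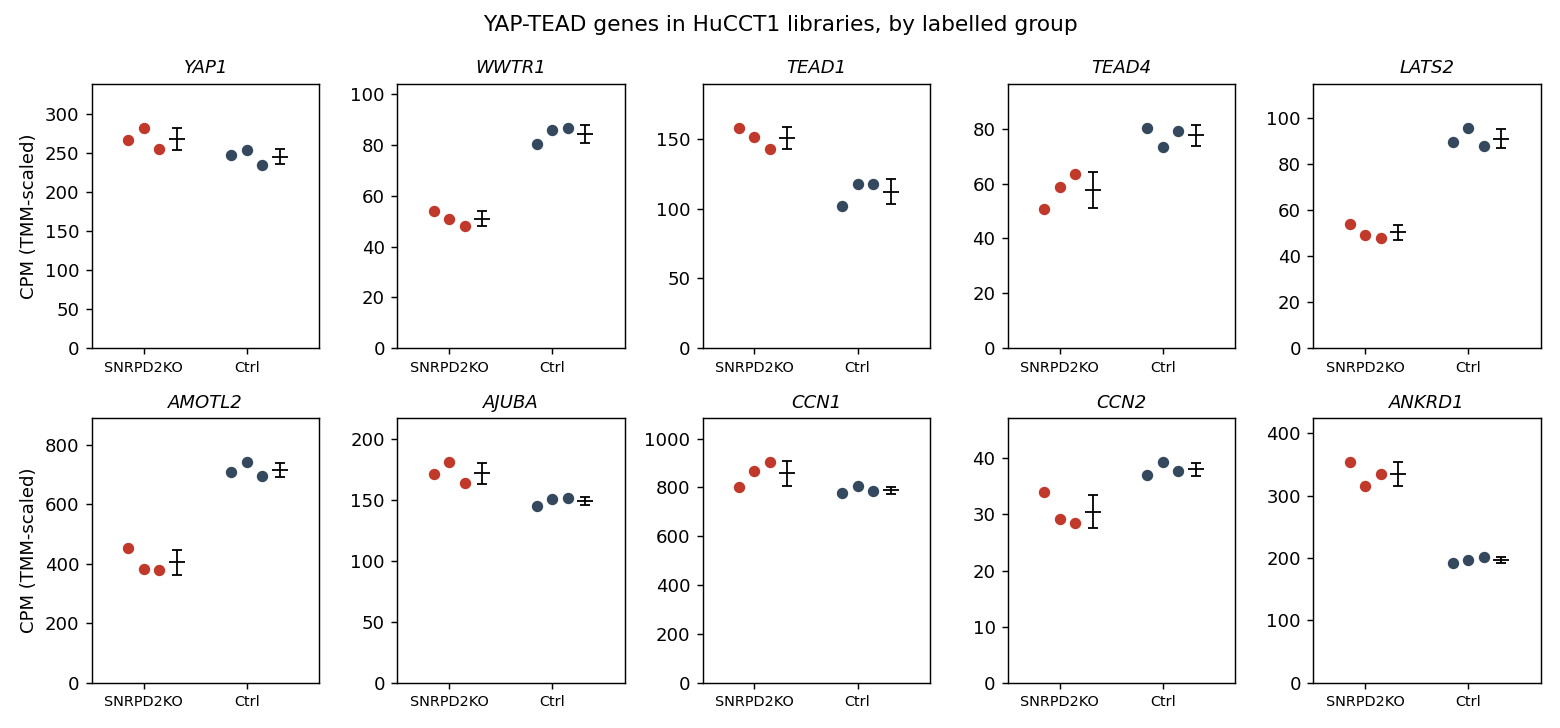
TMM-scaled CPM (y axis, from 0, a scale per gene) of the 10 genes in the 6 HuCCT1 libraries, a point per library, with the mean and SD of the 3 libraries in black beside each labelled group. ANKRD1 lies at 315 to 353 CPM in SNRPD2KO and 192 to 201 CPM in Ctrl, and CCN1 is the gene whose groups overlap.

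Between the SNRPD2KO and PUS7KO libraries of HEK293T, 1 of the 10 genes passed. It was TEAD1, which was lower in SNRPD2KO (-0.46, SE 0.12, adjusted p = 0.045). Of all genes 3.2% were lower and 1.57% higher in SNRPD2KO (4.77% in either direction). The call was lost under 8 of 16 alternatives, among them the GC trend removed (-0.35, adjusted p = 0.12) and the omission of SNRPD2KO replicate 1 or 2 or PUS7KO replicate 1 or 2. ANKRD1 was lower in all SNRPD2KO libraries than in any PUS7KO library, yet its value of -0.53 (95% interval -0.88 to -0.18) did not pass (adjusted p = 0.072). It passed without SNRPD2KO replicate 3 (-0.73, adjusted p = 0.011). For CCN2, AMOTL2 and LATS2 the differences were 0.04, 0.09 and 0.02, with 95% intervals of -0.38 to 0.45, -0.27 to 0.45 and -0.38 to 0.41. The groups did not overlap for 4 of the 10 genes, beside 25.2% of all genes. SNRPD2KO replicate 3 and PUS7KO replicate 2 stood apart within their groups. SNRPD2KO replicate 3 held the highest value for 9 of the 10 genes and had 67.2% of its counts on protein-coding genes, where replicates 1 and 2 had 61.7% each. PUS7KO replicate 2 had 68.8%, where replicates 1 and 3 had 63.6% each. Of all genes, 758 passed between these groups, 1891 without SNRPD2KO replicate 3 and 32 without PUS7KO replicate 2. Across genes, the log2 fold change rose with transcript GC content between these groups (Spearman rho 0.49), and less so between SNRPD2KO and Ctrl (0.36) and PUS7KO and Ctrl (0.18). In HuCCT1 that rho was -0.02. The part of GC content and of these libraries in these values was not tested beyond the alternatives given.

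The responses of the lines to the SNRPD2KO label were set against each other in 1 fit over 12 libraries. Of the 10 genes, 7 differed between lines, beside 40.8% of 17593 genes. ANKRD1 differed most, with a response 2.88 log2 units higher in HuCCT1 than in HEK293T (SE 0.20, adjusted p = 7.4e-09). CCN2 followed at 1.65 (SE 0.20, adjusted p = 3.7e-06), then TEAD1 at 1.07 (SE 0.15, adjusted p = 1.8e-05), YAP1 at 0.97 (SE 0.12, adjusted p = 3.3e-06) and CCN1 at 0.48 (SE 0.13, adjusted p = 0.0061). Of all genes 19.8% had a higher response in HuCCT1 and 21% a lower one. TEAD4 and AJUBA had lower responses in HuCCT1, by -1.01 (SE 0.15, adjusted p = 2.9e-05) and -0.74 (SE 0.11, adjusted p = 2.2e-05). The differences for AMOTL2 (0.28, 95% interval -0.11 to 0.68), LATS2 (0.40, 0.02 to 0.78) and WWTR1 (-0.25, -0.64 to 0.14) did not pass. With the GC trend removed, LATS2 (0.58, adjusted p = 0.019) and WWTR1 (-0.52, adjusted p = 0.018) passed as well, and LATS2 also passed without HEK293T Ctrl replicate 3 (0.52, adjusted p = 0.027). The lines were counted in separate tables, and line and table cannot be told apart, but each response is a difference within 1 line.

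**Figure D5:**
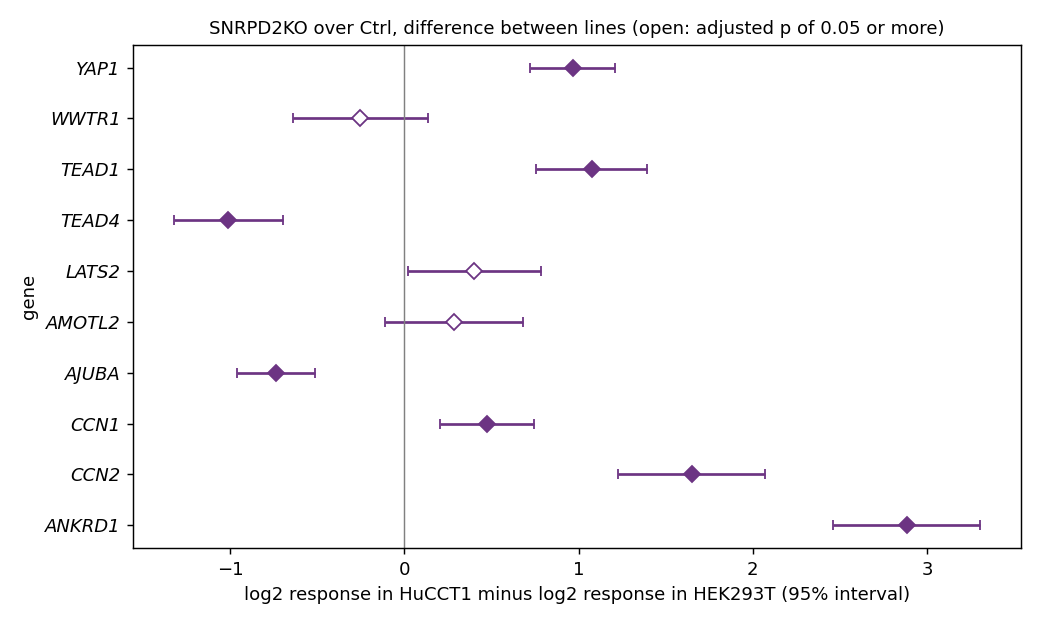
Difference between lines in the SNRPD2KO response (x axis, log2 response in HuCCT1 minus log2 response in HEK293T) with 95% intervals from the edgeR fit over 12 libraries, with open symbols where the adjusted p was 0.05 or more. ANKRD1 lies farthest to the right at 2.88, TEAD4 lies at -1.01, and AMOTL2, LATS2 and WWTR1 are open.

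Levels of different genes were compared per kilobase of exon. In HEK293T SNRPD2KO libraries CCN1 led at 14.1 ± 1.64 CPM per kb (SD, n = 3), followed by TEAD4 at 12.1 ± 0.78 and ANKRD1 at 11.1 ± 2.45, and LATS2 was lowest at 1.26 ± 0.25. In PUS7KO libraries CCN1 at 16.8 ± 1.99 and ANKRD1 at 16.2 ± 0.52 came first with overlapping ranges, and LATS2 was again lowest at 1.25 ± 0.10. In HEK293T Ctrl libraries ANKRD1 led at 50.4 ± 12.5 CPM per kb, above CCN1 at 18.7 ± 2.00 and YAP1 at 12.3 ± 0.99, and LATS2 closed the order at 3.13 ± 0.57. CCN2 fell to 2.48 ± 0.67 CPM per kb in SNRPD2KO, against 10.2 ± 1.39 in Ctrl, where it stood in the fourth place. Neighbours in the order had overlapping ranges in 5 of 9 cases in SNRPD2KO, 4 in PUS7KO and 5 in Ctrl, so the order within the lower ranks is loose.

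In HuCCT1 CCN1 led in both groups, at 374 ± 22.7 CPM per kb in SNRPD2KO and 344 ± 6.26 in Ctrl. ANKRD1 and AMOTL2 exchanged places. ANKRD1 stood at 169 ± 9.67 and AMOTL2 at 84.6 ± 8.68 CPM per kb in SNRPD2KO, against 99.5 ± 2.31 for ANKRD1 and 149 ± 4.98 for AMOTL2 in Ctrl. YAP1 came next in both groups, at 47.6 ± 2.48 in SNRPD2KO and 43.7 ± 1.66 in Ctrl. The lowest gene was LATS2 in SNRPD2KO (9.14 ± 0.59, overlapping WWTR1 at 9.50 ± 0.54) and TEAD1 in Ctrl (12.1 ± 0.97, below WWTR1 at 15.7 ± 0.63). Neighbours overlapped in 2 of 9 cases in SNRPD2KO and 3 in Ctrl. All 10 genes had more CPM in every HuCCT1 library than in any HEK293T library of the same label. How many of all genes did so was not counted, so this is not shown to be particular to the 10 genes. The lines were scaled in separate tables, and protein-coding genes took a larger share of counts in HuCCT1. The part of that share in these levels was not tested. Together they took 0.239% to 0.249% of counts in HuCCT1 SNRPD2KO and 0.235% to 0.250% in HuCCT1 Ctrl. Their shares in HEK293T were 0.0174% to 0.0244% (SNRPD2KO), 0.0218% to 0.0255% (PUS7KO) and 0.0352% to 0.0431% (Ctrl). In bulk RNA, fewer cells that express a gene and less RNA per cell cannot be told apart.

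The other genes of the pathway were described by lists, whose choice was not blind to these samples. Of the Hippo kinase core and its upstream regulators, 10 of 21 tested genes fell and 3 rose in HEK293T SNRPD2KO against Ctrl, beside 26.4% lower and 26.9% higher of all genes, and the list's median log2 fold change was -0.25 against 0.02 over all genes. MOB1B (-1.72), a coactivator of LATS kinases, TAOK1 (-1.29), a kinase that activates the cascade, FRMD6 (-1.04), a scaffold, and LATS1 (-0.90) and WWC2 (-0.73) fell. In PUS7KO against Ctrl 8 fell and 3 rose, beside 23.8% and 25.6% of all genes (median -0.19 against 0.01), with TAOK1 at -0.90, FRMD6 at -0.77, LATS1 at -0.75 and MOB1B at -0.74 and with DCHS1, a protocadherin, higher at 0.92. Between SNRPD2KO and PUS7KO 2 of 21 passed, MOB1B (-0.98) and MOB1A (-0.52), both lower in SNRPD2KO, beside 4.77% of all genes. In HuCCT1 11 of 21 rose and 5 fell, beside 28.8% higher and 28.4% lower of all genes, with a median of 0.20 against 0.00. FAT4, an atypical cadherin (1.14), AMOT (0.86) and WWC1 (0.66) rose, while the scaffold SAV1 (-0.78) and AMOTL1 (-0.66) fell. Between lines, 10 of 22 genes had a higher response in HuCCT1 and 2 a lower one, beside 19.8% and 21% of all genes, with MOB1B at 2.08, TAOK1 at 1.49, FAT4 at 1.45, FRMD6 at 1.19 and WWC2 at 1.06.

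Nuclear partners of the coactivators and further YAP and TAZ targets were read against the same shares of all genes (SNRPD2KO 26.4% lower and 26.9% higher, PUS7KO 23.8% and 25.6%, HuCCT1 28.4% and 28.8%, difference between lines 21% and 19.8%). Of 11 partners tested in HEK293T, 6 fell and 1 rose in SNRPD2KO against Ctrl, among them RUNX1 (-1.46), VGLL3 (-0.95), SMAD4 (-0.87), SMAD3 (-0.72) and SMAD2 (-0.72), with a median of -0.46. In PUS7KO 5 fell and 1 rose (median -0.31), with RUNX1 at -1.13, SMAD3 at -0.89, SMAD4 at -0.74, SMAD2 at -0.59 and VGLL4, a TEAD cofactor that competes with YAP1, at -0.58. In HuCCT1 5 of 10 partners fell, among them SMAD4 (-0.97), RUNX1 (-0.62), VGLL4 (-0.52) and VGLL1 (-0.47), and 3 rose, with TP73 at 0.95 and a median of -0.10. Between lines, 5 of 11 partners had a higher response in HuCCT1, namely TP73 (0.87), VGLL3 (0.86), RUNX1 (0.78), SMAD2 (0.72) and SMAD3 (0.51). Of the other targets, 7 of 14 fell and 2 rose in HEK293T SNRPD2KO, with NT5E (-2.15), NUAK2 (-1.60), GADD45A (-1.13), RBMS3 (-1.07) and MYOF (-1.03) lower and a median of -0.47. In PUS7KO 8 of 14 fell and 1 rose (median -0.38), with NT5E at -1.79, NUAK2 at -1.52, CRIM1 at -0.86, MYOF at -0.79 and ASAP1 at -0.57. The largest of these changes rest on few counts. NT5E averaged 0.34 CPM in SNRPD2KO, 0.46 CPM in PUS7KO and 1.64 CPM in Ctrl. The SE of its log2 fold change was 0.56 for SNRPD2KO and 0.53 for PUS7KO. NUAK2 averaged 1.31 CPM in SNRPD2KO, 1.42 CPM in PUS7KO and 4.07 CPM in Ctrl. In HuCCT1 9 of 17 rose and 4 fell, with a median of 0.18. There MYOF (1.65), a membrane repair protein, DOCK5 (1.25), F3 (0.73), the clotting initiator tissue factor, and ARHGEF17 (0.62) rose, whereas NUAK2, a kinase, fell by 1.60 on the log2 scale. Between lines, 8 of 18 targets had a higher response in HuCCT1 and 2 a lower one. The higher ones included MYOF at 2.65, NT5E at 2.01 (SE 0.47), CRIM1 at 1.26, ASAP1 at 1.20 and GADD45A at 1.15. The median was 0.73 against -0.01 over all genes. Between SNRPD2KO and PUS7KO, 1 partner of 11 passed (VGLL3, -1.12) and 1 target of 14 (GADD45A, -0.73). Both were lower in SNRPD2KO, beside 3.2% lower and 1.57% higher of all genes (4.77% in either direction). Calls in this comparison changed with the libraries used, so they are not read further.

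Other regulators share targets with YAP1, and their lists are read against the shares of all genes given above for each comparison. Of 8 AP-1 genes, 4 rose and 3 fell in HEK293T SNRPD2KO against Ctrl. The Fos-related genes FOSL1 (-2.03) and FOSL2 (-1.70) fell, and JUND (1.14), JUN (0.91) and FOSB (0.82) rose, around a list median of 0.24. In PUS7KO 3 rose and 3 fell (median 0.04), with FOSL1 at -1.86, FOSL2 at -1.46 and JUNB at -0.94 and with JUN at 1.18 and JUND at 0.98. Between SNRPD2KO and PUS7KO, 2 of 8 were higher in SNRPD2KO, FOS (0.67) and FOSB (0.66), and 1 was lower, ATF3 (-0.58). Of all genes 1.57% were higher and 3.2% lower there. In HuCCT1 4 rose and 4 fell, with FOS at 2.36, JUND at 1.21 and FOSB at 1.09 and with FOSL1 at -1.13 and ATF3 at -1.08 (median 0.32). Between lines, 4 AP-1 genes had a higher response in HuCCT1, FOS (1.74), FOSL2 (0.87), FOSL1 (0.86) and JUNB (0.39), and ATF3 (-1.03) had a lower one. FOSL1, FOSL2 and JUNB fell in both lines, but less in HuCCT1, where FOSL2 was at -0.79 and JUNB at -0.29. Of 12 SRF and MRTF targets, which respond to actin, 2 rose and 2 fell in HEK293T SNRPD2KO, beside 26.9% higher and 26.4% lower among all genes. There ACTA2 was at 0.98, FLNA at 0.37, ACTB at -0.58 and FHL2 at -0.49 (median -0.29). ACTA2 averaged only 3.05 CPM in SNRPD2KO and 1.56 CPM in Ctrl (SE 0.32). Some of the others were imprecise in HEK293T, with CNN1 at 0.49 CPM in SNRPD2KO and 0.82 CPM in Ctrl and an SE of 0.59 for ACTG1. In PUS7KO 1 rose (FLNA, 0.34) and 4 fell (median -0.15), with ACTB at -0.86 and TPM1 at -0.50. Between SNRPD2KO and PUS7KO 0 of 12 passed. In HuCCT1 2 of 12 rose, FLNA (0.93) and TPM1 (0.51), and 5 fell, among them TAGLN (-0.90), SRF itself (-0.67) and ACTB (-0.49), with a median of -0.11. Between lines, the response of TPM1 (0.72) and FLNA (0.51) was higher and that of SRF (-0.82) lower in HuCCT1, and the other 10 of 13 did not pass. ACTB has near-identical processed copies in the genome, so its counts are uncertain. Of the TGF-beta response genes, 4 of 6 fell and 2 did not pass in HEK293T SNRPD2KO (median -0.58), with the feedback inhibitors SKIL at -1.63 and SMAD7 at -1.57, and 3 of 6 fell in PUS7KO (median -0.29), with SMAD7 at -1.64 and SKIL at -1.21. In HuCCT1 4 of 8 fell, among them TGFBR2 (-0.35), TGFBI (-0.31) and TGFBR1 (-0.29), with a median of -0.17. Between lines, 4 of 8 had a higher response in HuCCT1 than in HEK293T, SMAD7 (1.59), SKIL (1.55), TGFBR1 (0.42) and TGFBI (4.03, SE 0.85), which had too few counts to be tested in HEK293T alone.

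The genes most like CCN2 were ranked by the Pearson correlation of log2 CPM over the 9 HEK293T and the 6 HuCCT1 libraries, averaged over the lines, among 12708 genes tested in both. The libraries share groups and depth, so this only describes the pattern. RSRC2 came first (mean r = 0.981), followed by SPRED2 (0.980), TENT5A (0.978), HIPK3 (0.974) and ZFAND5 (0.968). Within the list, AMOTL2 (0.962, rank 22) and LATS2 (0.931, rank 182) were nearest to CCN2, with CCN2 itself counted as rank 1. WWTR1 had a mean r of 0.801. ANKRD1 ran against CCN2 in HuCCT1 (r = -0.835) and with it in HEK293T (r = 0.959). AJUBA ran against CCN2 in both lines (mean r = -0.860).

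Few counts were assigned to genes that overlap CCN2 and WWTR1. LINC01013, which overlaps CCN2 on the other strand, had at most 6 counts in a HEK293T library, where CCN2 had at least 41. WWTR1-AS1 had at most 18, where WWTR1 had at least 99. The kit keeps strand, but whether strand was used in counting is not given in the sources used here. The part of overlapping genes in these counts was not tested.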

How the data were processed

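RNA of 15 libraries was sequenced after ribosomal RNA depletion with a strand-keeping kit, per the labels' protocols. The authors deposited raw counts per gene, whole numbers without normalization, in a table for each line, and cutadapt 4.2, HISAT2 2.2.1, RSEM and hg38 are named in the submitters' processing notes without roles. The annotation release and the counting strand are not given in the sources used here.

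Groups came from the labels. Each line was fitted with edgeR 4.0.16 in R 4.3.3 (TMM factors, minimum count 10, minimum total 15, quasi-likelihood F test, two-sided, Benjamini-Hochberg over all genes tested, threshold 0.05). All 9 HEK293T libraries shared 1 fit. The difference between lines was an interaction over 12 libraries. The biological coefficient of variation was 10.8% in HEK293T, 10.1% in HuCCT1 and 10.4% in the joint fit. The scripts were tested on simulated counts. Depth was 7944276 to 16795618 counts, and pairs of replicates differed beyond counting noise (chi-square per degree of freedom 2.54 to 8.15).

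Exon lengths and GC content came from GENCODE 29, matched by gene identifier without version. Promoter windows came from RefSeq (GRCh38.p14). The genes and lists were chosen with earlier results of these data known. All 10 genes are named in every comparison. From each further list, up to 5 genes past the threshold, with at least 1 CPM in the higher group and the largest changes, could be named, and the text leaves some of these out. Genes like CCN2 are the 5 with the highest mean correlation. The alternatives were RLE and upper quartile factors, protein-coding genes only, no filter, 1 CPM in 3 libraries, DESeq2 1.42.0, limma 3.58.1 voom, a replicate block, a GC trend removed per library (spline with 5 degrees of freedom), the 2 groups alone and each library left out.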

Additional observations from a re-analysis of the deposited data

Results flagged for a closer look

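In 7 of the 10 genes the SNRPD2KO response differed between the lines by the interaction test (edgeR, adjusted over 17593 genes, of which 40.8% passed). The differences, as log2 response in HuCCT1 minus that in HEK293T, were 2.88 for ANKRD1, 1.65 for CCN2, 1.07 for TEAD1, 0.97 for YAP1, 0.48 for CCN1, -0.74 for AJUBA and -1.01 for TEAD4. For ANKRD1, TEAD1 and TEAD4 the change passed the test in both lines with opposite signs. For CCN2 and AJUBA it passed in both lines with the same sign, and for YAP1 and CCN1 it passed in HEK293T alone. All 7 calls held under each of the 21 alternatives, with ANKRD1 between 2.67 and 3.08. Line and count table cannot be told apart, and SNRPD2 RNA was higher in the libraries labelled SNRPD2KO of both lines.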

How the results depend on the processing

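The count of the 10 genes called stayed within 1.5 times under all alternatives in 4 comparisons: 8 to 10 for HEK293T SNRPD2KO against Ctrl, 6 to 8 for PUS7KO against Ctrl, 8 to 10 in HuCCT1 and 7 to 9 for the difference between lines. The comparison of HEK293T SNRPD2KO with PUS7KO did not. Its 1 call among the 10 genes became 0 with RLE factors, with the GC trend removed and with the 2 groups alone, and 2 with no filter and with DESeq2, and it ran from 0 to 2 with a library left out. Its 758 calls among all genes became 1292 with no filter, 107 with the GC trend removed and 464 with the 2 groups alone, and ran from 22 to 1891 with a library left out. Signs turned in that comparison for genes near 0. With the GC trend removed, CCN2 was at -0.035, AMOTL2 at -0.026 and LATS2 at -0.060. With a library left out, CCN2 ran from -0.21 to 0.20, AMOTL2 from -0.034 to 0.25, LATS2 from -0.082 to 0.17 and WWTR1 from -0.37 to 0.080. The cause was not tested. No sign of the 10 genes turned in the other 4 comparisons.

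Libraries of different groups with the same replicate number were no more alike than those with different numbers. Their deviations from the group means correlated at -0.09 to 0.04 in HEK293T and -0.04 to -0.01 in HuCCT1. With different numbers the range was -0.09 to 0.13 in HEK293T and -0.03 to 0.04 in HuCCT1. These values cannot show whether a number marks a shared culture or day. With the replicate block, 10, 6, 1, 8 and 7 of the 10 genes passed in the 5 comparisons in the order used above, with SNRPD2KO against PUS7KO after PUS7KO against Ctrl. In that comparison ANKRD1 then passed (-0.56, adjusted p = 0.029) and TEAD1 did not (-0.47, adjusted p = 0.057), and 560 genes were called in all.

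Depth and the 3 libraries a group limit precision. CCN2 had as few as 41 counts in a HEK293T library, and its 95% interval in SNRPD2KO against Ctrl ran from -2.39 to -1.65.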
